A study of Homo sapiens with 24 samples.

Results

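The sites occupied by S100A8 and by S100A9 in transformed breast cells were compared. Both proteins carried a Flag tag, and both were mapped by chromatin immunoprecipitation and sequencing (ChIP-seq) in cells treated with 4-hydroxytamoxifen (TAM). A site was a genomic region that held peaks of at least 2 of the 3 replicates of a protein, where peaks had to reach a false discovery rate (q value) of 1e-07 and peaks that overlapped by at least 1 bp were merged. TAM sites of the proteins were then merged by the same overlap. This gave 30228 TAM sites, out of 30322 sites in the whole series when the sites of vehicle-treated cells were included. Of the TAM sites, 12971 (42.9%) were sites of both proteins and are called shared, 5266 (17.4%) were sites of S100A8 alone (S100A8-only), and 11991 (39.7%) were sites of S100A9 alone (S100A9-only).

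MCF-10A–ER-Src cells derive from MCF-10A, a human mammary epithelial line that is not tumorigenic, and carry ER-Src, in which the viral Src kinase is joined to the part of the estrogen receptor that binds hormone. Derivatives that stably produce S100A8 or S100A9 with 1 Flag tag at the C terminus, from a retroviral vector, were kept for 24 hours in 1 μM TAM, which switches on v-Src and leads to transformation, or in ethanol (EtOH), the vehicle. The 3 S100A8-Flag and the 3 S100A9-Flag libraries in TAM are the groups compared, and 2 S100A8-Flag and 3 S100A9-Flag libraries in EtOH were used where stated. All groups carry ER-Src and keep their own S100A8 and S100A9 genes, each protein comes from its own cell line, and the tagged protein is made from introduced cDNA, so that a difference between proteins and a difference between these lines cannot be told apart. The labels call the replicates biological, and p values measure the spread between these libraries.

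S100A8 and S100A9 are small calcium-binding proteins that pair with each other and are known best as secreted inflammatory signals of myeloid cells and stressed epithelia. Neither has a conventional DNA binding domain, and for that reason the chromatin was fixed with protein-protein cross-linkers before formaldehyde, so that proteins held at DNA through other factors are recovered. AP-1, C/EBP, and STAT3 are transcription factors that act mostly at enhancers of epithelial and inflammatory genes, ETS and KLF/SP1 factors bind many promoters, and CTCF binds insulators and the borders of chromatin loops.

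A few sites show what the classes look like at the level of DNA. The following windows are 101 bases or shorter around the summit of the site, the position of highest signal, on the plus strand of GRCh37 (hg19). Capitals mark matches to the searched motifs, which are AP-1 (TGAGTCA or TGACTCA), C/EBP (TTGCNNAA or TTACNNAA), STAT3 (TTCCNGGAA), ETS (CGGAAG), KLF/SP1 (CCCCGCCC), CREB (TGACGTCA), and CTCF, on either strand. A window without capitals holds none of these letters, which says nothing about other forms of a motif. The first 3 windows are shared sites that all 6 libraries called, taken from the 5 promoter and 5 distal sites of highest mean rank in enrichment. They lie at the promoters of EIF2D (a factor of translation initiation) and CHD1 (a chromatin remodeler), and at an intergenic site whose nearest start of a protein-coding gene is that of RANBP3L, 71.5 kb away.
EIF2D, chr1:206785803-206785903: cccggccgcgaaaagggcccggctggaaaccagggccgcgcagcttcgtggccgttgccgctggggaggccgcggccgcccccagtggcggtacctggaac
CHD1, chr5:98265252-98265352: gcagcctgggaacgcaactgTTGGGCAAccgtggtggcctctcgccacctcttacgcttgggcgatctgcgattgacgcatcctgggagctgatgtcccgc
RANBP3L, chr5:36373683-36373783: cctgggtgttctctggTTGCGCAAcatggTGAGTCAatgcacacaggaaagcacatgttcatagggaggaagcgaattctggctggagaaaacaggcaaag

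The next windows come from the most separated sites, which all 3 libraries of one protein called and at which no library of the other protein had any deposited peak. With S100A9 and without S100A8 they are the promoter of PDCD1LG2 (the immune checkpoint ligand PD-L2), an intron of RPAP2 (a phosphatase of RNA polymerase II), and an intergenic site 74.2 kb from TCF7L2 (an effector of Wnt signaling). These windows held AP-1 matches, whereas sites of the same kind near IRX5 and in SH3KBP1 held none, and over all such sites AP-1 matches lay in 59 of 190.
PDCD1LG2, chr9:5509784-5509884: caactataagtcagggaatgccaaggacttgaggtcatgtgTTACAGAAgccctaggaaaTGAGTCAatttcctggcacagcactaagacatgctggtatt
RPAP2, chr1:92795031-92795131: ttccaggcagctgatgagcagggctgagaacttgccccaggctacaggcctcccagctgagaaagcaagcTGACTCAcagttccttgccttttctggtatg
TCF7L2, chr10:114635742-114635842: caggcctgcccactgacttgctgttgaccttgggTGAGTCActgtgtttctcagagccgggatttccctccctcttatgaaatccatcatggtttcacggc
With S100A8 and without S100A9 they are the first intron of NRG3 (a neuregulin that activates ERBB4), an intergenic site 207 kb from VEGFC (a growth factor of lymphatic vessels), and a coding exon of ANKS1A (an adaptor of Eph receptors). The ANKS1A window held an AP-1 match, as did 7 of the 22 sites of this kind.
NRG3, chr10:84026411-84026511: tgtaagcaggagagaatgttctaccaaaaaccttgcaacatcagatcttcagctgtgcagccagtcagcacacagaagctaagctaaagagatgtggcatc
VEGFC, chr4:177921474-177921574: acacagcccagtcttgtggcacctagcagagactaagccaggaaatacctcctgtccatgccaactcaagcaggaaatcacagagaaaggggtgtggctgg
ANKS1A, chr6:35048769-35048869: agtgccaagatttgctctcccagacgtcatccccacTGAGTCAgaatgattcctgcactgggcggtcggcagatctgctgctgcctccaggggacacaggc

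The S100A8 libraries had 29381, 24117, and 21518 peaks at this q value, and the S100A9 libraries had 25494, 23994, and 40735. Replicate 3 of S100A9 therefore stood apart by the size of its list, whereas the other 5 libraries were within the range from 21518 to 29381. The lists give no read numbers, the depth of the libraries is unknown, and the part of depth in the number of peaks was not tested. The shared sites made up 71.1% of the 18237 TAM sites with S100A8 and 52.0% of the 24962 with S100A9.

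Most protein-only sites were called in 2 rather than 3 libraries of their own protein (4394 of 5266 for S100A8 and 8820 of 11991 for S100A9). All 6 libraries called 4323 sites. All 3 S100A9 libraries and no S100A8 library called 972 sites (3.22% of all TAM sites), and all 3 S100A8 libraries and no S100A9 library called 178 (0.589%). These counts follow from the rule that formed the classes and are given as a description. The most frequent patterns among protein-only sites were 2 S100A9 libraries with 1 S100A8 library (4728 sites) and 2 S100A9 libraries with none (4032), and for S100A8 2 libraries with 1 S100A9 library (2825) and 2 with none (1544).

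**Figure D1:**
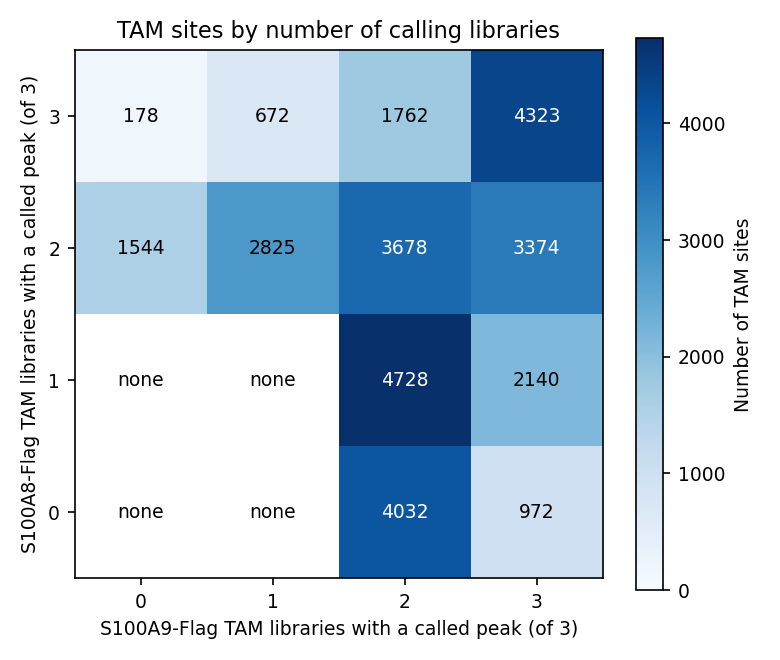
Number of TAM sites by how many of the 3 S100A8 libraries (vertical axis) and of the 3 S100A9 libraries (horizontal axis) called a peak there with a q value of 1e-07 or less. The corner with all 6 libraries holds 4323 sites, the corner of 3 S100A9 and 0 S100A8 libraries 972, and the corner of 3 S100A8 and 0 S100A9 libraries 178.

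The absence of a call seldom meant the absence of a peak. Of the S100A8-only sites, 66.4% were called in 1 S100A9 library and 32.7% in none, and 93.7% overlapped a deposited S100A9 peak of any q value up to 0.05 in at least 1 library. In all 3 S100A9 libraries such a peak was found at 36.4% of the S100A8-only sites. Of the S100A9-only sites, 57.3% were called in 1 S100A8 library and 41.7% in none, and 87.6% overlapped a deposited S100A8 peak in at least 1 library. Thus 332 S100A8-only sites and 1483 S100A9-only sites had no deposited peak of the other protein. The large list of S100A9 replicate 3 called 42.1% of the S100A8-only sites, whereas replicates 1 and 2 called 13.96 and 12.17%.

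The class sizes moved when a library was left out. When S100A9 replicate 3 was left out, so that both remaining S100A9 libraries had to call a site, there were 10114 S100A8-only and 4294 S100A9-only sites, and the order of the classes was turned. It was also turned without S100A9 replicate 1 (8320 S100A8-only and 6943 S100A9-only sites) and without replicate 2 (8319 and 7138). The rule was then stricter for S100A9 (2 of 2 libraries) than for S100A8 (2 of 3), so these counts do not show the part of a single library. Without an S100A8 library there were 2131 to 2633 S100A8-only and 16313 to 17065 S100A9-only sites. Under equal rules S100A9-only stayed larger, with 2622 and 6546 sites for 3 of 3 replicates and 17151 and 21347 for at least 1. With the 21518 peaks of lowest q value in each library, 10016 sites were shared, 5833 were S100A8-only, and 7914 were S100A9-only.

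S100A9 libraries were more like each other than like S100A8 libraries, whereas S100A8 libraries were not. The overlap of 2 peak lists, as the share of merged regions that both lists hold (Jaccard index), was 26.2 to 28.9% among S100A8 libraries, 34.4 to 36.2% among S100A9 libraries, and 29.21 to 31.99% for the 9 pairs across proteins. The mean was 31.4% within and 30.6% between proteins, a difference of 0.877 percentage points (p = 0.1 by an exact permutation test of libraries, two-sided, which is the lowest value for 3 against 3). It was −1.19 to −0.974 points without any of the S100A9 libraries and 2.56 to 3.03 points without any of the S100A8 libraries. At the 13740 TAM sites where all 6 libraries had a deposited peak, the fold enrichments of 2 libraries correlated weakly in every case. Across these sites, which are not independent and share the same chromatin, Pearson's r was 0.114 to 0.128 among S100A8 libraries, 0.153 to 0.195 among S100A9 libraries, and 0.117 to 0.156 across proteins. Sites that lack a peak in any library are left out of these values, which therefore do not measure agreement over all sites. The study reported reproducible profiles and a very high correlation of S100A8 with S100A9 binding levels over the union of peaks, which is another measure. Peak summits of 2 libraries lay a median of 36 to 44 bp apart within S100A8, 30 to 35 bp within S100A9, and 33 to 42 bp across proteins.

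To see whether a lean toward one protein holds in libraries that did not define it, sites were formed from 2 libraries of each protein and read in the remaining pair. For each of the 9 choices of the held-out pair, regions with peaks of both retained S100A9 libraries and of neither S100A8 library were called S100A9-leaning, and the converse S100A8-leaning. On average, held-out S100A9 libraries called 50.8% of the S100A9-leaning regions and held-out S100A8 libraries 35.4%. Of the S100A8-leaning regions, held-out S100A9 libraries called 40.5% and held-out S100A8 libraries 32.6%. These means mix unlike pairs. Where S100A9 replicate 3 with its large list was held out, it called 57.8 to 61.7% of the S100A8-leaning regions, and in the other 6 pairs held-out S100A9 libraries called 29.2 to 33.3% and held-out S100A8 libraries 26.6 to 36.1%. The log2 ratio of held-out S100A9 to S100A8 calls was higher at S100A9-leaning than at S100A8-leaning regions in 9 of 9 pairs, by a mean of 0.24 ± 0.11 (SD over 9 pairs that share libraries), with a range from 0.04 to 0.36. No test was made of these pairs, since each library enters several of them.

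EtOH libraries, which had no part in the classes, called few of the protein-only sites. They called 1.65 to 5.26% of the S100A8-only sites, 2.35 to 6.02% of the S100A9-only sites, and 9.08 to 20.9% of the shared sites. The log2 ratio of the share called at S100A9-only to that at S100A8-only sites was 0.15 and 0.15 in the S100A8 libraries and 0.35, 0.51, and 0.32 in the S100A9 libraries. The groups did not overlap, and the difference of 0.245 had the lowest p that 2 against 3 libraries allow (p = 0.2 by an exact permutation test, two-sided). Without chromosome 13, which is described further on, it was 0.147.

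Shared and protein-only sites differed in their position relative to genes. A site was counted as a promoter where its summit lay near the transcription start site (TSS) of a protein-coding gene, no more than 1500 bp before it or 250 bp after it. Promoters made up 41.0% of the shared sites, 23.02% of the S100A8-only sites, and 24.1% of the S100A9-only sites, and 49.6% of the sites called in 6 of 6 libraries. The protein-only classes were close to each other, also in their extreme forms, with 20.8% promoters among the sites of 3 S100A8 and 0 S100A9 libraries and 22.3% among those of 3 S100A9 and 0 S100A8. Sites are not replicates, and these shares are given without a test.

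The share of promoters followed the number of libraries that called a site. It was 18.4% for sites called in 2 libraries, 23.6% in 3, 32.2% in 4, 40.8% in 5, and 49.6% in 6. Shared sites ranked higher in enrichment than protein-only sites. The classes were therefore also compared within ranges of the highest percentile of fold enrichment that a site reached in any library. Shared sites were called in more libraries than most protein-only sites, so their highest percentile is drawn from more values. Sites of the same range are thus not matched in strength over all libraries. Between the 90th percentile and the top, promoters were 43.8% of shared, 25.5% of S100A8-only, and 28.2% of S100A9-only sites. Between the 50th and the 75th percentiles they were 34.82, 22.60, and 22.98%. Up to the 50th percentile the gap was smaller, with 23.5% of 349 shared, 18.9% of S100A8-only, and 19.1% of S100A9-only sites.

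Away from promoters, later introns held 17.2% of shared, 25.1% of S100A8-only, and 24.0% of S100A9-only sites. First introns held 6.57, 9.61, and 8.69%. Intergenic sites within 50 kb of a TSS were 15.7, 18.0, and 19.2%, and those beyond 50 kb were 11.6, 16.3, and 15.6%. Promoters of long noncoding RNA (lncRNA) genes took 4.61 to 5.42%, coding exons 1.318 to 1.726%, and untranslated exons 1.303 to 1.835%. In each of these types the protein-only classes were nearer to each other than S100A8-only was to shared. Shared sites were also wider (median 473 bp, against 284 bp for S100A8-only and 266 bp for S100A9-only), richer in G and C around the summit (60.2, 53.7, and 54.2%), and richer in CpG (a median of 10, 4, and 5 CpG in 201 bp).

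**Figure D2:**
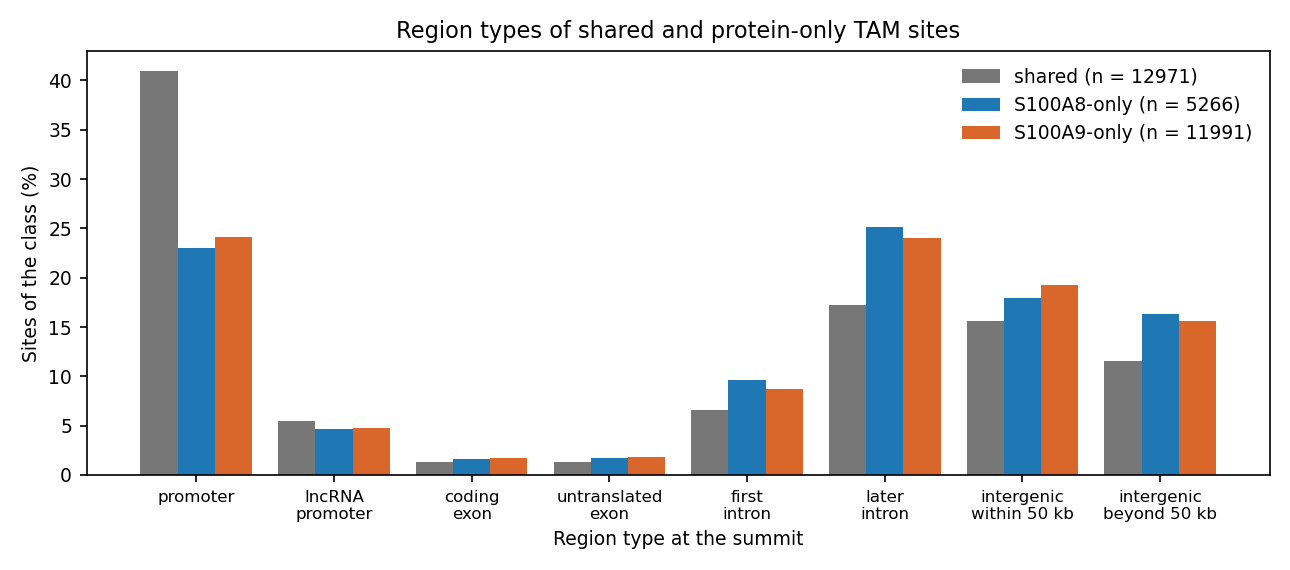
Percent of shared, S100A8-only, and S100A9-only TAM sites in each of 8 region types, as bars that start at 0. Promoters are 41.0% of shared sites against 23.02 and 24.10% of the protein-only classes, and the protein-only bars are near each other in every type.

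Single libraries gave the same picture of region types for both proteins. Promoters held 29.2, 29.9, and 31.1% of the peaks of the S100A8 libraries and 30.8, 33.4, and 27.2% of those of the S100A9 libraries. The means were 30.1 ± 0.966% and 30.5 ± 3.07% (SD, n = 3 each), and the groups overlapped (difference 0.396 points, two-sided exact permutation test, p = 0.9). None of the 8 region types separated the libraries of the proteins. With the same number of top peaks in each library, the promoter share was 31.0% for S100A8 and 32.6% for S100A9, and these groups did not overlap.

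The frequency of CTCF motifs did not overlap between the proteins, whereas that of each other motif did. Among distal peaks, those outside promoters of protein-coding genes, a CTCF match lay within 100 bp of the summit in 9.752, 10.002, and 9.611% of peaks in the S100A8 libraries and in 11.3, 13.9, and 12.6% in the S100A9 libraries. Every S100A9 library was above every S100A8 library. The means were 9.79 ± 0.198% and 12.6 ± 1.323% (SD, n = 3 each), a difference of 2.82 points (p = 0.1 by the same exact permutation test, again the lowest possible, and 0.8 after adjustment over 16 measures). Of the 16 measures of region type and motif, 1 (6.25%) did not overlap between the proteins. With equal numbers of top peaks, the CTCF share was 10.2% for S100A8 and 13.6% for S100A9 without overlap, and then the shares of first introns and of promoter ETS and CREB matches did not overlap either. With every deposited peak the CTCF difference was 1.12 points (exact permutation p = 0.6). In EtOH the CTCF share was 11.8% in libraries of either protein, and the groups overlapped.

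The site classes held the same order. They were formed from the same peak lists, so this is a description and not separate support. CTCF matches lay in 12.7% of distal shared sites, 9.77% of distal S100A8-only sites, and 15.0% of distal S100A9-only sites. At the sites of 3 libraries against 0 the shares were 6.38% for S100A8 and 17.5% for S100A9, which is 9 of 141 and 132 of 755 distal sites. Windows of the same length 1 kb to the left and right of the summits of the distal sites held a CTCF match in 0.572 and 0.577%, so that all classes were far above their surroundings. The order of the protein-only classes was the same in each range of enrichment rank, from 8.43 against 11.6% up to the 50th percentile to 12.7 against 18.5% above the 90th.

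AP-1 matches were the most frequent of the searched motifs at distal sites. They lay in 28.8, 32.2, and 33.4% of distal peaks of the S100A8 libraries and in 34.0, 32.8, and 33.5% of those of the S100A9 libraries. The difference of 1.98 points did not exceed the spread between libraries (two-sided exact permutation test, p = 0.2). Without S100A8 replicate 1 this difference, within 100 bp of the summit, was 0.642 points. Within 50 bp of the summit in place of 100 bp, and with all 6 libraries, the difference was 3.23 points and had the lowest possible p (exact permutation test, p = 0.1). By class, AP-1 matches lay in 37.4% of shared, 33.6% of S100A8-only, and 33.1% of S100A9-only distal sites, against 3.61 and 3.56% in the windows to the left and right. C/EBP matches lay in 21.4, 22.7, and 20.1%, against 17.1 and 17.3% in those windows, and S100A8 libraries (18.5, 21.8, and 22.5% of distal peaks) overlapped S100A9 libraries (21.8, 19.8, and 20.5%). STAT3 matches lay in 1.75% of shared, 1.28% of S100A8-only, and 1.23% of S100A9-only distal sites.

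At promoters, ETS matches lay in 30.7% of shared sites but in 22.4% of S100A8-only and 22.7% of S100A9-only sites, and in 18.2% of equal windows at the 5′ ends of 20098 protein-coding gene records. KLF/SP1 matches lay in 25.8, 24.5, and 22.9% of promoter sites and in 22.5% of those 5′ ends. CREB matches lay in 3.29% of shared, 1.49% of S100A8-only, and 2.15% of S100A9-only promoter sites, against 1.87% of the 5′ ends. ETS and CREB matches were thus more frequent at shared promoters than at the promoters of either protein-only class. The libraries of the proteins overlapped in each of these measures.

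**Figure D3:**
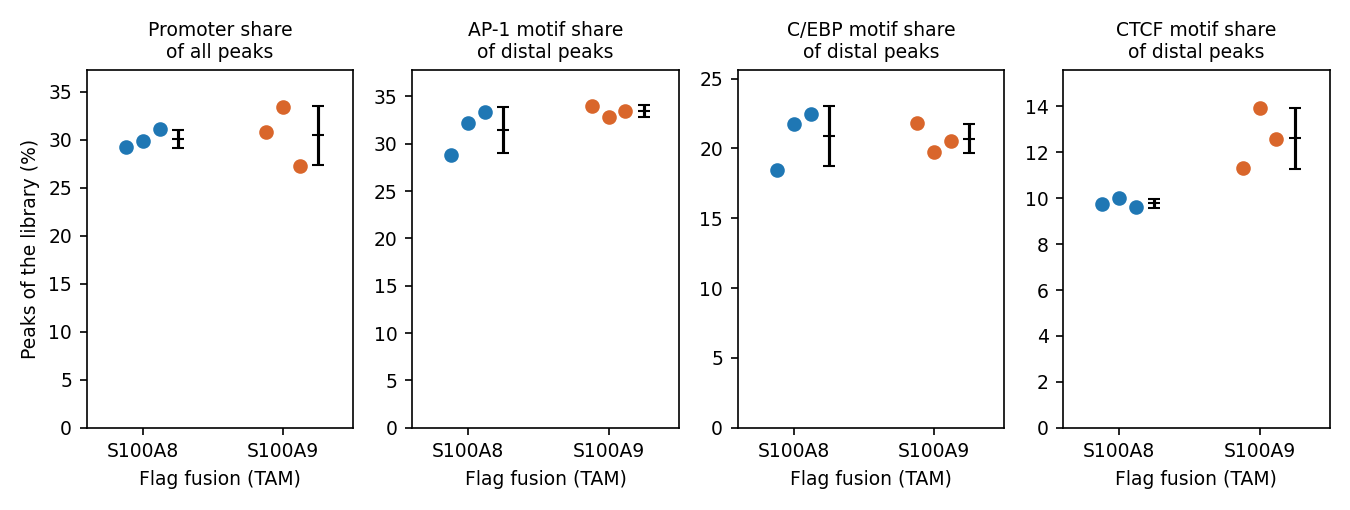
Share of peaks in percent for the 6 TAM libraries, with each library as a point and the mean and SD of each protein as a bar beside them, for promoters and for motif matches at distal peaks. The distal CTCF share is 9.611 to 10.002% in S100A8 and 11.3 to 13.9% in S100A9 libraries, and the other shares shown overlap between the proteins.

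Chromosome 13 went against the rest of the genome. On it, 252 sites were S100A8-only and 164 were S100A9-only, a ratio of S100A9-only to S100A8-only sites of 0.651, whereas the ratio on each of the other 22 chromosomes was between 2.06 and 2.71 (median 2.32). In TAM, chromosome 13 held 3.16, 2.89, and 3.14% of the peaks of the S100A8 libraries and 2.07, 1.90, and 2.13% of those of the S100A9 libraries. In EtOH, it held 4.21 and 3.86% for S100A8 and 2.11, 2.48, and 2.00% for S100A9. Every S100A8 library was above every S100A9 library in both treatments.

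The log2 ratio of the mean shares, S100A9 over S100A8, was −0.59 in TAM (p = 0.1 by the exact permutation test, the lowest possible), and on the other chromosomes it was between −0.04 and 0.09. In TAM, 2 of 23 chromosomes (8.7%) did not overlap between the proteins, chromosomes 12 and 13, and in both treatments 1 (4.35%), which is chromosome 13. With the protein permuted within each treatment, the mean log2 ratio over both treatments was −0.74 (p = 0.01, the smallest that 200 arrangements of the exact permutation test can give, and 0.23 after adjustment over 23 chromosomes). The excess of S100A8-only sites ran along the chromosome. In bins of 10 Mb, 7 of 8 bins of chromosome 13 with at least 20 protein-only sites held more S100A8-only than S100A9-only sites, and elsewhere this was so in 1 of 259 such bins.

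Peaks of S100A8 libraries were not more enriched on chromosome 13 than elsewhere. The median fold enrichment of S100A8 peaks was 7.65, 7.39, and 7.56 on chromosome 13 and 7.90, 7.85, and 7.83 elsewhere. Between the proteins, at sites with a deposited peak in 6 of 6 libraries, the median log2 difference in enrichment, S100A9 minus S100A8, was −0.14 over 342 sites on chromosome 13 and −0.01 over 13398 elsewhere. The copy number of chromosome 13 in the S100A8 and S100A9 lines and the input libraries were not analysed here, and their part in this pattern was not tested. Without chromosome 13 there were 12629 shared, 5014 S100A8-only, and 11827 S100A9-only sites.

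**Figure D4:**
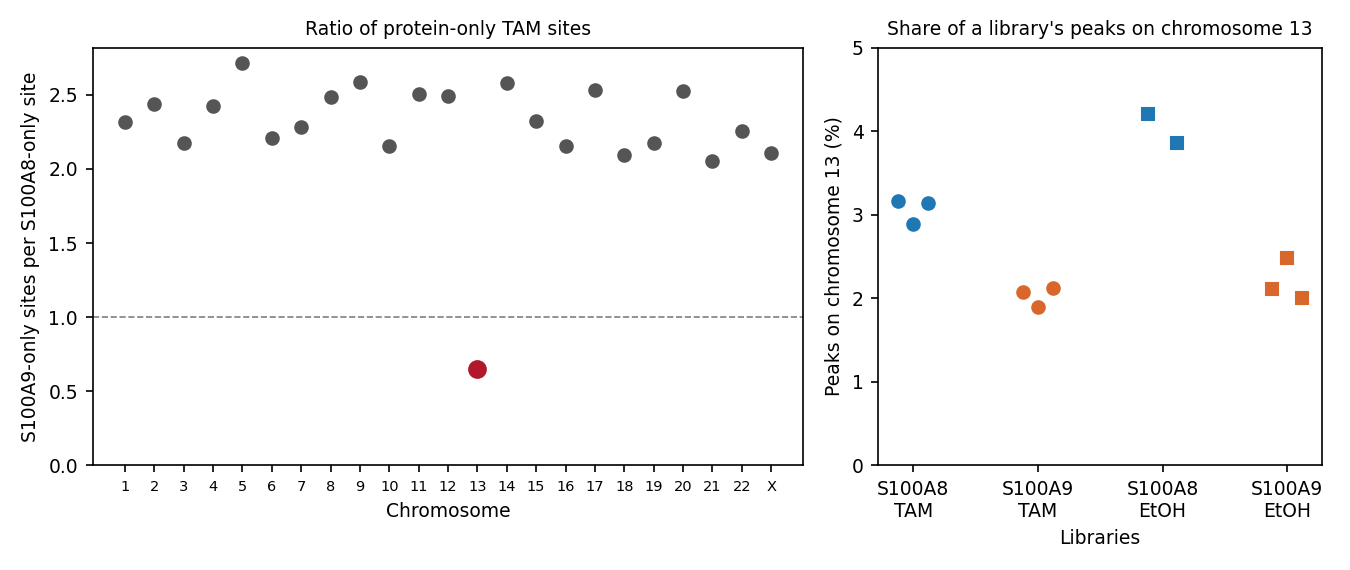
Ratio of S100A9-only to S100A8-only TAM sites for each chromosome, with a dashed line at equal numbers, and the share of peaks on chromosome 13 in percent for each library in TAM and EtOH. S100A8 libraries lie between 2.89 and 4.21% and S100A9 libraries between 1.90 and 2.48%, and the ratio is 0.651 on chromosome 13 against 2.06 to 2.71 elsewhere.

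The strongest shared sites were chosen for a high mean rank over both proteins, and their values are given as a description. Enrichment is the signal of the peak relative to the chromatin input of its library, in folds, as the lists give it. The promoter of OSMR (the oncostatin M receptor, which signals through JAK and STAT proteins), chr5:38845581-38846446, ranked highest, with fold enrichments of 28.3, 16.4, and 23.7 for S100A8 and 17.7, 24.8, and 16.9 for S100A9. The libraries of the proteins overlapped there. The promoters of USP3 (a deubiquitinase of histones), PDE8A (a cyclic AMP phosphodiesterase), CHD1, and EIF2D followed, with fold enrichments from 11.1 to 23.1. At EIF2D they were 19.4, 19.4, and 11.1 for S100A8 and 17.0, 21.0, and 16.3 for S100A9, a log2 difference of 0.01 ± 0.37 (SE).

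The strongest distal shared sites lay in an intron of ASTN2, at lncRNA promoters whose nearest protein-coding TSS are those of TMEM250 and MAPK6 (an atypical MAP kinase), in an untranslated exon of ZBTB7B (a transcription factor), and 71.5 kb from RANBP3L. At the RANBP3L site, which holds the AP-1 and C/EBP matches printed above, fold enrichments were 12.4, 13.8, and 13.2 for S100A8 and 14.6, 11.9, and 11.5 for S100A9. At ZBTB7B they were 15.9, 19.8, and 15.9 for S100A8 and 10.3, 11.5, and 15.1 for S100A9. The ZBTB7B values of the proteins did not overlap but were not called different (log2 difference −0.65, limma adjusted p = 0.92).

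Fold enrichment was compared site by site at the 13740 sites with a deposited peak in all 6 libraries, with limma on centered log2 values and Benjamini-Hochberg adjustment over all these sites. At an adjusted p below 0.05, 1 site (0.00728%) was higher for S100A9 and 0 (0%) were higher for S100A8. At an unadjusted p below 0.05 there were 354 sites higher for S100A9 and 401 higher for S100A8, together 5.5% of the sites. The values of the proteins did not overlap at 692 sites (5.04%) that were higher for S100A9 and at 799 (5.82%) that were higher for S100A8. At 75.3% of the sites the log2 difference was within ±0.5, and at 1.91% it was more than 2-fold. The median SE of a site was 0.42, so that differences of the size of most sites were not detectable with 3 libraries each.

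The called site was the promoter of DST, chr6:56407339-56407996, which encodes dystonin, a linker of keratin filaments to hemidesmosomes. Its fold enrichments were 2.38, 3.94, and 2.60 for S100A8 and 13.3, 15.5, and 11.6 for S100A9, so that the lowest S100A9 value was above the highest S100A8 value. The log2 difference was 2.05 ± 0.42 (SE, limma adjusted p = 0.031). All 3 S100A9 libraries and no S100A8 library called this site, so it entered the comparison only through its S100A9 calls. Its p value is therefore given as a description and not as separate support. In EtOH, fold enrichments at this site were 6.06 and 7.80 for S100A8 and 8.23, 9.21, and 8.74 for S100A9, again without overlap but closer together. The call was lost with −log10 q in place of fold enrichment (limma adjusted p = 0.199) and without any library other than S100A8 replicate 2 (limma adjusted p from 0.15 to 0.32). With any 1 of the 6 libraries left out, S100A8 replicate 2 included, the log2 difference stayed between 1.88 and 2.28. At the 4323 sites called in all 6 libraries, which do not include this site, limma called 0 sites.

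Another TSS of the same gene carried the converse pattern. The DST promoter at chr6:56708855-56709222 was S100A8-only, with fold enrichments of 7.54, 11.3, and 5.82 for S100A8 and no deposited S100A9 peak in any library. The windows of the called DST site and of the 2 sites with the highest evidence for S100A8, PTMA and P2RY2, are printed for comparison, since they mark the ends of the range of enrichment differences. P2RY2 holds an AP-1 match.
DST, chr6:56407577-56407661: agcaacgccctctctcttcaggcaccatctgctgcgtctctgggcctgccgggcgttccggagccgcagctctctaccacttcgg
PTMA, chr2:232572911-232573011: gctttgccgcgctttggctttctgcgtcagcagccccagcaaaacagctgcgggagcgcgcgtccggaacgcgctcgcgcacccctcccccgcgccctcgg
P2RY2, chr11:72903463-72903563: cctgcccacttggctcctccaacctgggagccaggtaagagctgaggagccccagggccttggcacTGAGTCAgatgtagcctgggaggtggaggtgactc

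The other sites with the smallest p values had adjusted p values of 0.338 or more and are given as values. For S100A9 they were the promoter of MCFD2 (a cargo adaptor of the endoplasmic reticulum), the promoter of PSMB3 (a proteasome subunit), a region 24.1 kb from KRT17 (a basal keratin), and a site 101 kb from SSBP2. MCFD2 had 11.4, 6.66, and 3.73 for S100A8 and 19.9, 17.4, and 25.1 for S100A9, and in EtOH 6.002 and 4.766 for S100A8 and 42.3, 20.4, and 15.2 for S100A9. The region near KRT17 had 15.0, 16.7, and 5.60 for S100A8 and 43.2, 38.2, and 19.2 for S100A9, and in EtOH 6.93 and 9.10 against 32.1, 13.4, and 24.9. At both of these sites, all S100A9 libraries were above all S100A8 libraries in TAM and in EtOH, and at PSMB3 and SSBP2 the EtOH libraries overlapped.

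For S100A8 the sites were the promoters of PTMA (prothymosin alpha), MSANTD3, and DHTKD1 (a mitochondrial dehydrogenase of lysine breakdown), a site 25.8 kb from P2RY2 (a receptor of extracellular nucleotides), and a site 45.0 kb from PNRC1 (a nuclear receptor coregulator). PTMA had 15.2, 15.8, and 22.2 for S100A8 and 3.38, 6.38, and 9.92 for S100A9, a log2 difference of −1.70 ± 0.41 (SE, limma adjusted p = 0.338). P2RY2 had 7.93, 17.0, and 21.5 for S100A8 and 6.48, 4.49, and 5.03 for S100A9. At PTMA the order was the opposite in EtOH, with 9.34 and 7.55 for S100A8 and 9.52, 10.6, and 11.2 for S100A9. The other 4 sites had no deposited peak in at least 1 EtOH library.

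**Figure D5:**
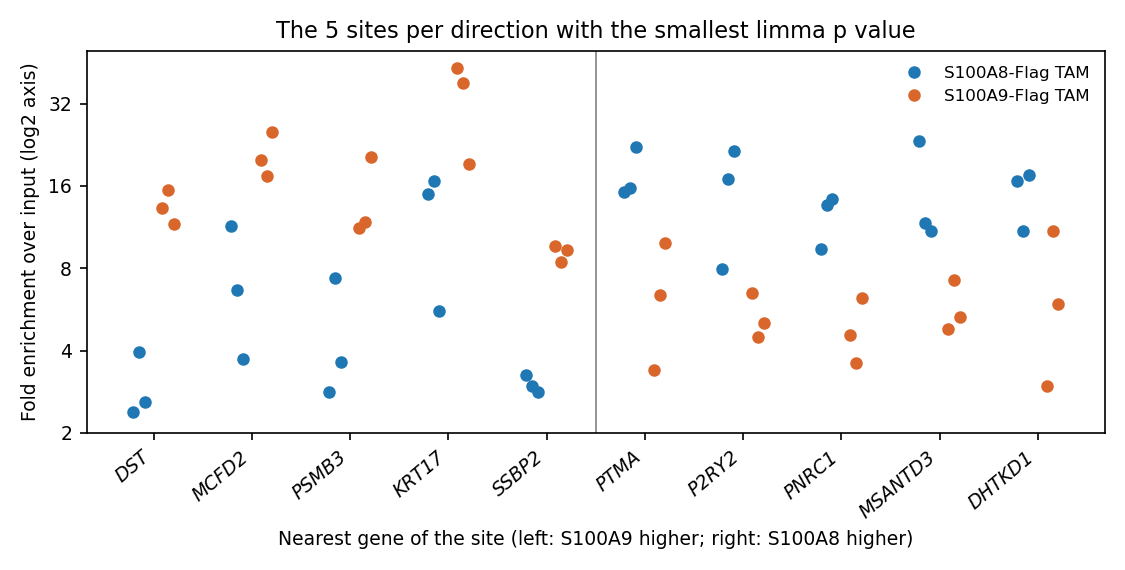
Fold enrichment over input, on a log axis, of each of the 6 TAM libraries at the 10 sites with the smallest p values, 5 per direction. At the DST promoter the S100A8 points lie between 2.38 and 3.94 and the S100A9 points between 11.6 and 15.5, and the DST promoter is the 1 site that passed the adjusted threshold.

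The sites without any deposited peak of the other protein were of middling enrichment. There were 190 sites called in all 3 S100A9 libraries without an S100A8 peak and 22 called in all 3 S100A8 libraries without an S100A9 peak, with median fold enrichments of 7.88 and 7.86, against 9.16 at the sites called in 6 of 6 libraries. Of these, 14 of 190 and 2 of 22 were promoters. AP-1 matches lay in 59 of 190 and 7 of 22, and CTCF matches in 24 of 190 and 0 of 22. On chromosome 13 there were 2 of the 190 and 0 of the 22.

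Among those of S100A9, the promoter of PDCD1LG2 (chr9:5509741-5509951) ranked highest, with fold enrichments of 9.30, 11.5, and 14.4. A site 6.32 kb from IRX5 (a homeobox factor) had 11, 15.1, and 8.68, the RPAP2 intron had 10.9, 10.2, and 10.9, and the site near TCF7L2 had 8.88, 11.6, and 9.96. The remaining named sites lay in introns of SLC35F4, EXT1, and SH3KBP1 (an adaptor of receptor endocytosis) and 84.4 kb from RGMA, with fold enrichments from 8.16 to 18.0. No S100A8 library had a peak at any of them. Among those of S100A8, the NRG3 intron (chr10:84026360-84026579) had 11.4, 13.9, and 10.7, the site near VEGFC had 12.2, 9.51, and 9.50, and the ANKS1A exon had 8.29, 8.31, and 9.77. The others lay in introns of IDO2 and CRYBB3, 3.97 kb from SLC18A1, and far from any protein-coding TSS, 352 kb from BUD13 and 1930 kb from CDH6, with fold enrichments from 6.90 to 14.4.

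By gene, promoters with a shared site were the largest class of occupied promoters. Of 20090 protein-coding genes, 4971 (24.7%) had a shared promoter site, 2143 (10.7%) had S100A9-only promoter sites, 867 (4.32%) had S100A8-only promoter sites, 115 had protein-only promoter sites of both kinds, and 11994 had none. With distal sites within 50 kb of a TSS or in the gene body, 15079 genes (75.1%) had a site. There were 932 genes whose sites were all S100A8-only and 2854 whose sites were all S100A9-only, and 3621 genes had protein-only sites of both proteins. Protein-only sites of both kinds thus often lay around the same gene.

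Among the genes with the most protein-only sites, some had several of both kinds and others had mainly those of a single protein. LAMB3 (a chain of laminin-332, the anchoring laminin of basal epithelium) had 12 shared, 6 S100A8-only, and 10 S100A9-only sites, and it was among the first 5 genes for either protein. PRKCE (a protein kinase C) and RUNX1 (a transcription factor) had 6 S100A8-only sites, with 6 S100A9-only sites each. CDK18 had 5 S100A8-only and 3 S100A9-only sites. COL4A1 (a chain of basement membrane collagen), which lies on chromosome 13, had 5 S100A8-only sites and 1 S100A9-only site. For S100A9, RAD51B (DNA repair) had 13 S100A9-only sites and 1 S100A8-only site, MCL1 (an inhibitor of apoptosis) had 11 and 0, NAV2 had 11 and 0, and CUX1 (a homeobox factor) had 9 and 4. RAD51B, NAV2, CUX1, PRKCE, and RUNX1 are genes of 468 to 1217 kb, which gives more room for sites, and 9 genes tied at 5 S100A8-only sites.

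Gene lists related to transformation were then read against these shares, as counts. Among 16 genes for AP-1 subunits, 12 had a shared promoter site (75%, against 24.7% of all genes). An S100A9-only promoter site was found at 1 (6.25%, against 10.7%), and none had S100A8-only sites alone at the promoter (against 4.32%). JUN had fold enrichments of 9.58, 9.49, and 12 for S100A8 and 11.8, 10.9, and 9.79 for S100A9 at its shared promoter site, and JUNB had 7.62, 7.88, and 13.5 against 18.2, 16.8, and 11.6. MAFG, a small Maf protein, had an S100A9-only site with 9.63, 9.87, and 5.62 for S100A9 and no S100A8 peak. Of 21 JAK-STAT genes, 12 (57.1%, against 24.7% of all genes) had shared and 3 (14.3%, against 10.7%) S100A9-only promoter sites. STAT3 had 11, 11, and 19.1 for S100A8 and 12.3, 15.9, and 8.07 for S100A9, and JAK2 had 12, 11.6, and 8.97 against 12.3, 11, and 14.7.

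Of 18 NF-κB genes, 8 (44.4%, against 24.7% of all genes) had shared promoter sites, 5 (27.8%, against 10.7%) had S100A9-only sites, and 1, REL, had protein-only sites of both kinds at different positions. NFKB2 (the p100 subunit) had 13.8, 5.48, and 11.3 for S100A8 and 19.5, 21.1, and 10.5 for S100A9 at a shared site. NFKBIA (the inhibitor IκBα) had a shared promoter site with 11.2, 9.44, and 7.82 against 17.7, 10.6, and 9.92. NFKBIA also had an S100A8-only site with 9.30, 7.39, and 7.15 for S100A8 and 3.18, 12.2, and 3.17 for S100A9, which shows that a single S100A9 library there reached the highest value. Among 25 inflammatory cytokine and chemokine genes, 4 (16%, against 24.7% of all genes) had shared and 2 (8%, against 10.7%) had S100A9-only promoter sites. The other 19 (76%, against 59.7%) had none. Promoters of this list were thus occupied less often than those of genes overall. Distal sites were not fewer. Shared distal sites were assigned to 15 genes (60%, against 36.4% of all genes), S100A8-only to 7 (28%, against 24.0%), and S100A9-only to 14 (56%, against 44.1%). With promoter and distal sites together, 19 of the 25 genes had a site, against 75.1% of all genes. The genes with shared promoter sites included CXCL1, CXCL2, and CXCL3, and those with S100A9-only promoter sites were CXCL8 and IL24. CXCL8 had deposited peaks in S100A8 replicate 3 (9.28) and in S100A9 replicates 2 and 3 (8.41 and 9.33), so that its class rested on 1 library more for S100A9.

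Epithelial adhesion genes and basal keratins had 14 shared, 1 S100A8-only, and 5 S100A9-only promoters of 29 genes (48.3, 3.45, and 17.2%, against 24.7, 4.32, and 10.7% of all genes). Of these 29 genes, DST had both protein-only kinds. Among them, LAMB3 had 10.1, 9.85, and 5.24 for S100A8 and 15.1, 10.1, and 11.1 for S100A9 at a shared site, and KRT8 had an S100A9-only site with 5.23, 6.87, and 6.69 against 8.29, 5.64, and 14.6. DSG2 (a desmosomal cadherin) had an S100A8-only site with 7.79, 9.51, and 4.42 for S100A8 and peaks of 8.40 and 5.62 in S100A9 replicates 2 and 3. Genes of matrix remodeling and plasminogen activation had 5 shared, 1 S100A8-only, and 2 S100A9-only promoters of 21 (23.8, 4.76, and 9.52%), near the shares of 24.7, 4.32, and 10.7% over all genes, and SERPINE2 had both protein-only kinds. PLAUR (the urokinase receptor) had 5.94, 5.91, and 9.89 for S100A8 and 13.6, 21.7, and 10.3 for S100A9 at a shared site, without overlap but with a limma adjusted p of 0.899.

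Genes of the EGF receptor family and its ligands had 5 shared and 3 S100A9-only promoters of 14 (35.7 and 21.4%, against 24.7 and 10.7% of all genes). ERBB2 had an S100A9-only site with 5.64, 10.3, and 7.49 for S100A9 and no S100A8 peak, and ERBB3 had a shared site with 14.8, 14.7, and 6.26 against 5.06, 10.1, and 7.61. YAP-TEAD genes had 11 shared promoters (68.8%, against 24.7%) and 1 S100A9-only promoter (6.25%, against 10.7%) of 16. At YAP1 itself, a shared promoter site and an S100A8-only site were both found. Of 20 S100 genes, 11 (55%, against 24.7%) had a shared promoter site and 1 (5%, against 10.7%) an S100A9-only promoter site. Distal S100A8-only sites were assigned to 15 of them (75%, against 24.0% of all genes), and distal S100A9-only sites also to 15 (75%, against 44.1%). Promoter and distal assignments together were 28 S100A8-only and 26 S100A9-only, a ratio of 0.929 S100A9-only per S100A8-only against 2.34 over all genes. A site near several genes counts for each of them.

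Genes used in every cell had more shared promoters than genes overall (24.7%). Of 77 cytosolic ribosomal protein genes, 45 (58.4%) had shared, 16 S100A9-only, and 1 S100A8-only promoter sites, and of 34 proteasome genes, 16 (47.1%) had shared, 9 S100A9-only, and 2 S100A8-only sites. RPL31 had fold enrichments of 10.9, 9.85, and 14.8 for S100A8 and 10.8, 14.3, and 10.3 for S100A9. PSMD6 had 12.8, 15.1, and 14 against 10.1, 16.3, and 11.8. Of 25 hematopoietic and neuronal genes that epithelial cells do not use, 1 had a shared promoter site (CD8A, 4%, against 24.7% of all genes). An S100A9-only promoter site was found at 1 (GAD1, 4%, against 10.7%), and 23 (92%, against 59.7%) had none.

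The genes that were introduced into the cells need a separate account. Reads of introduced cDNA can map to the exons of the genome copy, and the sources cannot be told apart. The promoter of S100A8 was shared, with fold enrichments of 8.06, 8.33, and 13.9 for S100A8 and 13.6, 10.5, and 9.91 for S100A9. The promoter of S100A9 was shared as well, with 11.6, 9.25, and 4.58 for S100A8 and 11.6, 13.7, and 11.7 for S100A9. Each of these promoter sites overlaps an exon of its gene. In EtOH, 2 S100A8 and 0 S100A9 libraries called a peak at the S100A8 promoter site. At the S100A9 promoter site, 1 S100A8 and 3 S100A9 libraries did. Coding exons of S100A9 at chr1:153330744-153331009 and chr1:153332880-153333563 were S100A9-only, and the latter had 22.6, 16.2, and 14.8 for S100A9, 8.07 and 4.14 in S100A8 replicates 1 and 3, and no peak in S100A8 replicate 2. At the latter exon every S100A9 library, from the cells that carry S100A9 cDNA, was above every S100A8 library. At the former, all 3 S100A9 libraries called a peak, with 4.21, 8.70, and 3.77, and no S100A8 library did. S100A8 replicate 1 had a deposited peak of 5.40 there that missed the threshold (−log10 q of 5.995), and replicates 2 and 3 had none. In EtOH, 0 S100A8 and 3 S100A9 libraries called a peak at each of these S100A9 coding exons. A coding exon of ESR1 at chr6:152265385-152265687, whose gene encodes the estrogen receptor, was S100A9-only, with 5.93, 4.27, and 2.23 for S100A8 and 13.2, 5.83, and 14 for S100A9. The other sites over ESR1 exons were an S100A9-only site at chr6:152415535-152415737 and a shared site at chr6:152419842-152420141, and at both the peaks of the proteins overlapped in enrichment. The introduced kinase is the viral Src, and the human SRC gene is given beside it. The SRC promoter site at chr20:35974395-35974637, with its summit 6 bp from the TSS, was S100A9-only. It had 4.54 and 8.13 in S100A8 replicates 1 and 2 and 8.57, 8.28, and 6.63 for S100A9.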

How the data were processed

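Peak lists of Flag ChIP-seq libraries were used, 6 in TAM and 5 in EtOH. Per the labels and the study's methods, the authors used Bowtie2 for alignment to hg19 and MACS2 for peaks, which were called in each library against its own input, without pooling. Versions are not given in the sources used here. The deposited lists hold 2 values for each peak that were used, its fold enrichment relative to input and its −log10 q value (column 9). They reach down to a q value of 0.05, and the study's filters had not been applied to them.

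Peaks with a −log10 q of at least 7 on chromosomes 1 to 22 and X were used. The members and gene lists were chosen with earlier results of these data known. Peaks were merged by 1 bp of overlap. A site was called in a library where a peak of that library overlapped it, and a few protein-only sites (47 S100A8-only, and 118 and 1 S100A9-only) were therefore called in 2 or 3 libraries of the other protein, whose peaks there did not merge into a single region. The highest-ranked peak of a site gave its summit. The percentile of a peak is its rank by fold enrichment within its library. Genes and TSSs are from GENCODE release 44 lifted to GRCh37. Promoters cover 1500 bp before and 250 bp after a TSS, with downstream summits within 5% of the gene length for gene assignment, and distal sites were assigned within 50 kb of a TSS or over the gene body. Motifs were matched without mismatches within 100 bp of a summit on both strands, with overlapping motifs each counted.

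Libraries were compared by two-sided exact permutation tests, by the absolute difference for 3 against 3 libraries and by doubling the smaller tail where EtOH libraries entered, with Benjamini-Hochberg adjustment over the 16 measures or 23 chromosomes. Where S100A8 and S100A9 were compared in EtOH and TAM together, the protein was permuted within each treatment (200 arrangements). Fold enrichments were compared with limma 3.58.1 (R 4.3.3), with a trend in the variance, on log2 values centered on the median of each library. No pseudocount was needed, since only sites with 6 deposited peaks entered, and the model was tested on simulated data. Named sites were, by rule, the 5 promoter and 5 distal shared sites of highest mean percentile among those called in 6 libraries, up to 8 sites per protein called in its 3 libraries without a deposited peak of the other, the 5 sites per direction with the smallest p where fewer than 3 passed, all sites over exons of S100A8, S100A9, ESR1, and SRC, the 5 genes per protein with the most protein-only sites, and up to 3 list members per class. Alternatives were a −log10 q of at least 10, every deposited peak, equal numbers of top peaks, other overlaps and numbers of replicates, omission of each library, the replicate number as a block, other scalings, and, after seeing the data, the omission of chromosome 13 and the CTCF and chromosome 13 measures. Tools were Python 3.11.15, pandas 2.3.3, pysam 0.24.0, and samtools 1.23.1.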

Additional observations from a re-analysis of the deposited data

Results flagged for a closer look

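The difference between S100A9 and S100A8 changed between EtOH and TAM at an unadjusted p below 0.05 for 3 of the 16 measures of region type and motif, by a test of the change in the difference itself (two-sided exact permutation test over 200 arrangements of the libraries within treatments). The distal AP-1 share, S100A9 minus S100A8, was higher in TAM than in EtOH by 8.87 points (p = 0.02 from the exact test, 0.16 after adjustment over the 16 measures). In EtOH the share was 24.0 to 25.0% in S100A8 and 16.6 to 19.3% in S100A9 libraries, and in TAM the libraries overlapped around means of 31.5 and 33.4%. The promoter CREB share differed in the same sense by 0.840 points (exact p = 0.02, adjusted 0.16), with S100A8 and S100A9 means of 2.42 and 1.85% in EtOH against 2.39 and 2.67% in TAM. The promoter AP-1 share differed by 1.23 points (exact p = 0.04, adjusted 0.213), with means of 4.10 and 3.08% in EtOH and 6.04 and 6.26% in TAM. None of the 3 passed the adjustment, and S100A8 in EtOH has 2 libraries.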

How the results depend on the processing

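Sizes of classes depended on the threshold. With a −log10 q of at least 10 there were 6367 shared and 3196 S100A8-only sites, 114 sites of 3 S100A8 and 0 S100A9 libraries, and 636 of the converse kind. The promoter share of shared minus protein-only sites was then 14.1 points (17.2 at 7), and the library differences turned in sign, to −0.0767 points for promoters and −0.116 for distal AP-1, as they did for promoters with every deposited peak (−0.0721). With every deposited peak there were 30307 shared, 8187 S100A8-only, and 20683 S100A9-only sites, 292 and 1609 of the 3-against-0 kinds for S100A8 and S100A9, a promoter gap of 18.4 points, and a held-out difference of 0.383. With equal numbers of top peaks there were 7914 S100A9-only sites, 298 and 523 of the 3-against-0 kinds, and a promoter gap of 15.98. Requiring 3 of 3 replicates gave 4221 shared, 2622 S100A8-only, and 6546 S100A9-only sites with a promoter gap of 12.8, and requiring 1 gave 30869, 17151, and 21347. With −log10 q in place of fold enrichment, and at sites called in all 6 libraries, limma called 0 sites for S100A9, with 796 and 240 sites of either direction at an unadjusted p below 0.05.

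Without 1 library at a time, shared sites ranged from 7986 to 9967, S100A8-only from 2131 to 10114, S100A9-only from 4294 to 17065, the sites of 3 S100A8 and 0 S100A9 libraries, then 2 for the protein with a library left out, from 302 to 784, and the converse from 1497 to 2765. The promoter gap ranged from 14.6 to 17.6, the EtOH difference from 0.0676 to 0.282, within minus between overlap from −1.19 to 3.03 (−1.19, −1.10, and −0.974 without an S100A9 library), the promoter difference from −1.06 to 2.00, distal AP-1 from 0.642 to 2.94, CTCF from 2.15 to 3.47, the log2 ratio of chromosome 13 from −0.632 to −0.542, and called sites from 0 to 2 for S100A9 and 0 for S100A8. The CTCF and chromosome 13 differences kept their direction in each alternative tried. The causes of these shifts were not tested, beyond the fewer libraries or peaks that a setting leaves.

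Replicate numbers did not pair the libraries. Deviations of same-numbered S100A8 and S100A9 libraries from their group means correlated at −0.0112 to 0.00272 for calls and at −0.00377 to 0.00218 for log2 fold enrichment. With the replicate number as a block, limma called 1 site higher for S100A9 and 0 for S100A8, with an adjusted p of 0.020 at DST, and the overlap, CTCF, and distal AP-1 differences had p = 0.25 by the exact permutation test, the smallest that the block allows. Without read numbers, an uncalled site may lie below the depth of a library.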
